A study of Mus musculus with 36 samples.

Results

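The 39 genes described here encode proteins of the lysosome or proteins that activate its enzymes or regulate its genes. Acid sphingomyelinase (Smpd1) is at their centre, and they are listed by name for what their products do. They are 7 sphingolipid hydrolases, 5 activator and cofactor proteins, 6 glycosaminoglycan hydrolases, 5 glycogen and glycoprotein hydrolases, 6 proteases, 3 lipid and thioester hydrolases, 5 membrane proteins and 2 transcription factors. All 39 were found among the 52636 genes of the expression table, and all 39 were among the 25572 genes expressed highly enough to be tested. RNA of punches from the right anterior cingulate cortex (aCC) was sequenced in 36 female mice of the strain labelled C57BL/6NTac-Brd1, 1 library per mouse. Wild-type (WT) mice and mice heterozygous for a targeted deletion in Brd1 (Brd1+/-), made with a vector whose loxP sites flank exons 3 to 5, received saline (vehicle) or the tricyclic antidepressant imipramine (IMN) at 10 mg/kg. Of the vehicle mice 8 were WT and 9 Brd1+/-, and of the mice given IMN 10 were WT and 9 Brd1+/-. By the study's methods all 4 groups were injected on 2 consecutive days at an age of 8 to 11 weeks and went through tail suspension, open field and forced swim tests, so the vehicle mice were stressed and injected mice rather than untouched ones.

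Lysosomes are acidic organelles in which hydrolases break down lipids, glycans and proteins, and loss of a single one of these enzymes causes a storage disease that often strikes the brain. Acid sphingomyelinase splits sphingomyelin into ceramide and phosphocholine. Imipramine and other cationic amphiphilic drugs gather in lysosomes and are known to release acid sphingomyelinase from the inner lysosomal membranes, after which the protein is degraded. That action is on the enzyme, and RNA sequencing does not measure it. The transcription factors TFEB and TFE3 move to the nucleus when lysosomes are stressed and bind a short E-box motif in the promoters of lysosomal genes.

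That motif was looked for in the promoter windows of RefSeq (build GRCm38.p6), from 250 bases before to 50 bases after the start, which held 37 of the 39 genes. The palindromic core CACGTG, which reads the same on both strands, lay in the windows of 13 of the 37 genes (35.1%), against 8.09% of the 27025 genes with a window. The longer form TCACGTGA, which contains that core, lay in 5 of the 37 (13.5%), against 1.12% of all genes. A form with a further G before and C after TCACGTGA lay in 0 of the 37 and in 0.37% of all genes. The window of Smpd1 held no CACGTG. The sequences below are shown because they are where the best-known regulators of this gene group could bind, and they place the motif beside the expression values that follow. Capitals mark every TCACGTGA in the bases printed, 2 of them in Ctsa, and each sequence runs 5′ to 3′ on the strand of its gene. Gla holds another copy farther from its start that is not printed.
Ctsa, chr2:164833736-164833791, plus strand: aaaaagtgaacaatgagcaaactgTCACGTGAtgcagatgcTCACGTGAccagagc
Ctsd, chr7:142387895-142387950, minus strand: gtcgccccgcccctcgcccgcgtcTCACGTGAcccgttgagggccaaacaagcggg
Gla, chrX:134601169-134601224, minus strand: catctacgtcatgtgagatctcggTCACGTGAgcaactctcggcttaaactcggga
Mcoln1, chr8:3500449-3500504, plus strand: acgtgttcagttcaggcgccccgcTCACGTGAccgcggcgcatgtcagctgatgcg
Sumf1, chr6:108185564-108185619, minus strand: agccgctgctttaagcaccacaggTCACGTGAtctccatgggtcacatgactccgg
Smpd1, chr7:105554260-105554359, plus strand, the 100 bases before its start, with no motif to mark: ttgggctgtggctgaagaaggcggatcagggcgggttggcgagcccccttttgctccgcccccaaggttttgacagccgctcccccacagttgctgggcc

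Under vehicle, Brd1 itself averaged 26.4 TPM ± 3.03 (SD) in the 8 WT and 16.8 TPM ± 2.72 (SD) in the 9 Brd1+/- mice. Under IMN it averaged 23.3 TPM ± 3.43 (SD) in the 10 WT and 16.8 TPM ± 2.102 (SD) in the 9 Brd1+/- mice, lower in Brd1+/- as labelled. TPM is a level per transcript length relative to the whole library and keeps no record of depth. Markers of cortical excitatory neurons were detected in the tissue, with all 7 at a median of at least 1 TPM, while 0 of 6 choroid plexus markers reached that median. The library Brd1+/- vehicle 6 stood apart, with 3806 TPM of the choroid plexus gene Ttr and a summed level of 1522 TPM for 12 striatal markers, which reached at most 397.7 TPM in any other library. The summed level of 10 oligodendrocyte markers ran from 192.6 to 3560 TPM over the 36 libraries, and in WT vehicle it was 2830 TPM in replicate 1 and at most 970.1 TPM in the others. The mean log2 level of 13 immediate-early genes was 5.83 in WT vehicle and 5.80 in Brd1+/- vehicle, and 5.34 and 5.30 in the IMN groups.

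The lysosomal genes were well expressed in the aCC and steady between mice. Their median level was 30.8 TPM, against 4.47 TPM over all genes tested, and 33 of the 39 had a median of at least 10 TPM, a level reached by 39.1% of genes tested. The order was led by Psap, the precursor of the saposins that present sphingolipids to their hydrolases, with a median of 860.5 TPM over all libraries. Next came the heparan and dermatan sulfate enzyme Ids at 230.2 TPM and the aspartic protease cathepsin D (Ctsd) at 216.5 TPM. Ctsb at 214.7 TPM and Lamp1 at 199.1 TPM followed, and the ranges of Ids, Ctsd, Ctsb and Lamp1 over the libraries all overlapped. At the low end stood the heparan sulfate enzymes Naglu at 3.83 TPM and Sgsh at 2.03 TPM, with Tfeb at 2.95 TPM. The 39 genes summed to a mean of 3041 TPM ± 167.4 (SD) in WT and 3018 TPM ± 149.8 (SD) in Brd1+/- mice under vehicle. Under IMN the means were 2999 TPM ± 162.7 (SD) and 2957 TPM ± 84.8 (SD), and the 4 groups overlapped in this sum.

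**Figure D1:**
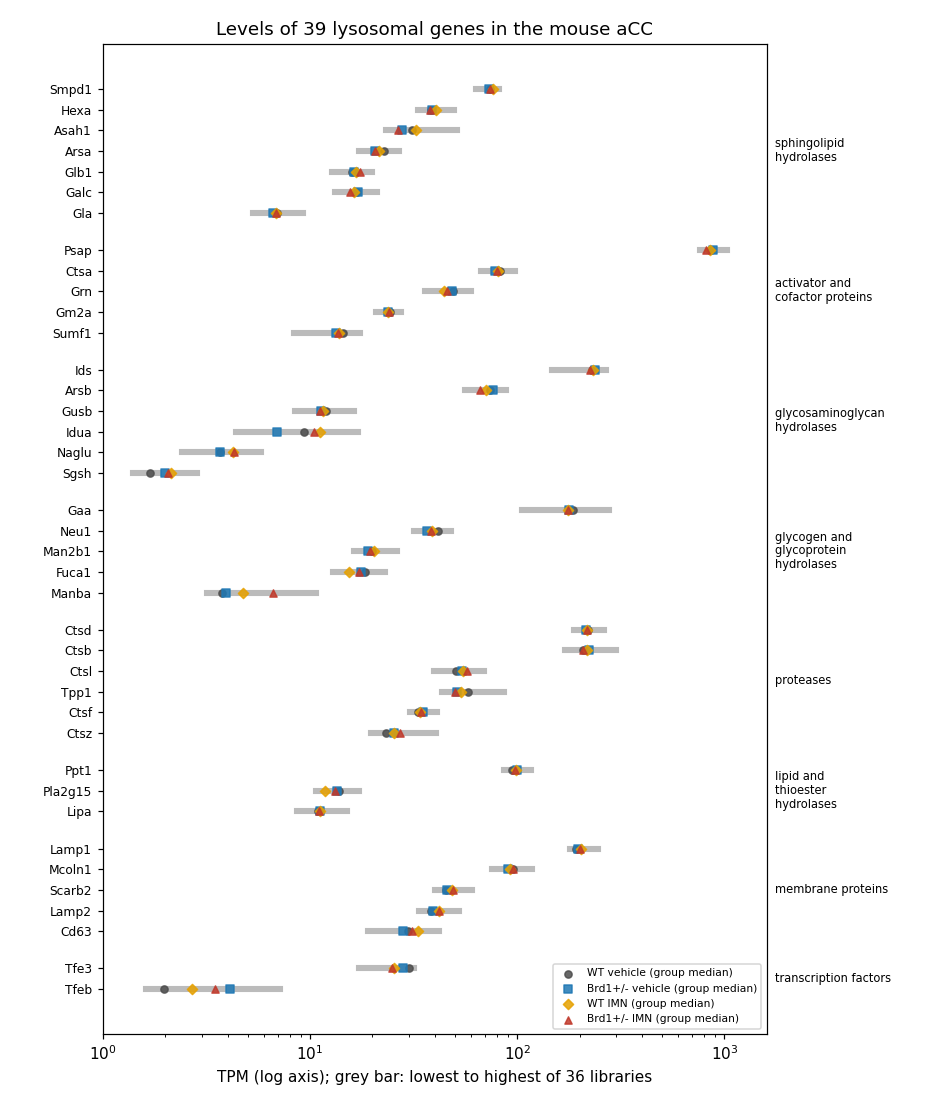
Levels of the 39 lysosomal genes in TPM on a log axis, ordered by role. Markers give the group medians and grey bars run from the lowest to the highest of the 36 libraries; Psap stands highest at 860.5 TPM and Sgsh lowest at 2.03 TPM, and the 4 markers of a gene lie close together except for Tfeb, Manba and Idua.

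The spread within groups differed widely between the genes. On the log2(TPM + 0.5) scale the within-group SD had a median of 0.16 over the 39 genes, compared with 0.24 over the 15187 tested genes in the same range of level. Levels were not matched within that range, so the lower SD is not shown to be particular to lysosomal genes. Gm2a, the activator of ganglioside breakdown, and Smpd1 varied least, each with an SD of 0.09. Tfeb (0.51), Idua (0.39), Manba (0.36) and Asah1 (0.35) varied most. For Tfeb, Idua and Manba, whose levels are low, the pseudocount also shrinks differences. Exons of 15 of the 39 genes overlap those of another gene, mostly on the opposite strand, and the use of strand in the counting is not stated.

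Smpd1 had nearly the same level in every group, with group means between 72.4 and 73.8 TPM. The gene lies on chromosome 7 from 105554360 to 105558389 (GRCm38, plus strand). It ran from 70.1 through a median of 73.7 to 77.3 TPM in WT vehicle and from 65.4 through 73.0 to 81.5 TPM in Brd1+/- vehicle. It ran from 63.3 through 76.1 to 79.7 TPM in WT IMN and from 67.1 through 74.2 to 79.5 TPM in Brd1+/- IMN. No group stood out, and the WT vehicle libraries lay wholly inside the range of each other group. With both genotypes together, Smpd1 under IMN was at 100.4% of its vehicle level (95% interval 95.8% to 105.3%, limma, adjusted p = 0.981). Brd1+/- against WT gave 98.0% under vehicle (91.2% to 105.4%) and 99.9% under IMN (92.7% to 107.6%). Exact permutation tests of the 4 comparisons between groups, two-sided over all arrangements of the libraries, gave p = 0.49 for genotype under vehicle, 0.976 for genotype under IMN, 0.660 for IMN in Brd1+/- and 0.862 for IMN in WT, and each was 0.976 after Benjamini-Hochberg adjustment over the 4.

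The other sphingolipid hydrolases gave 1 difference at an unadjusted p under 0.05 in the comparisons of IMN with vehicle, and none after adjustment. That 1 came in the fit over both genotypes, where 9.38% of all genes tested had such a p, and there was 0 within WT (6.6% of all genes) and 0 within Brd1+/- mice (5.52%). Acid ceramidase (Asah1), which takes the ceramide made by Smpd1 on to sphingosine, was uneven in every group. It ran from 25.0 through 31.0 to 51.0 TPM in WT vehicle, from 25.5 through 27.8 to 49.5 TPM in Brd1+/- vehicle, from 23.4 through 32.4 to 47.9 TPM in WT IMN and from 24.8 through 26.5 to 43.6 TPM in Brd1+/- IMN. The widest gap between neighbouring libraries was from 40.7 to 43.6 TPM, and 8 libraries lay on its upper side, 1 of WT vehicle, 4 of Brd1+/- vehicle, 2 of WT IMN and 1 of Brd1+/- IMN. This spread left the comparisons of Asah1 wide, at 94.4% of vehicle under IMN with an interval of 80.7% to 110.3% (limma, adjusted p = 0.884). The beta-galactosidase Glb1 ran from 12.8 through 15.9 to 18.5 TPM in WT vehicle, from 14.2 through 16.3 to 18.3 TPM in Brd1+/- vehicle, from 15.0 through 16.7 to 19.5 TPM in WT IMN and from 15.7 through 17.4 to 19.96 TPM in Brd1+/- IMN. Its log2 difference between IMN and vehicle was 0.11 ± 0.04 (SE, unadjusted p = 0.0195, limma, adjusted p = 0.403), with 15 of 19 IMN libraries above the vehicle mean of their genotype, and the groups overlapped. Its exons share 165 bases, 5.5% of their length, with Tmppe on the same strand. Hexa, Arsa, Galc and Gla, whose losses cause the classical sphingolipidoses, had medians of 38.6, 20.8, 16.4 and 6.84 TPM.

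Brd1+/- and WT mice given vehicle were compared first, since the study asked what the loss of 1 Brd1 allele does to expression. By limma with Benjamini-Hochberg adjustment, 0 of the 39 genes and 0% of all genes tested passed an adjusted p of 0.05. Brd1 itself, tested with them, therefore did not pass, although it averaged 26.4 TPM in WT and 16.8 TPM in Brd1+/- mice. The study's own test on counts found Brd1 alone significant in this comparison after correction. The absence of a call here is therefore no sign that a gene does not differ. At an unadjusted p under 0.05 there was 1 gene of the 39 (2.56%), against 3.75% of all genes tested. The median log2 difference of the 39 genes was -0.01 and that of all genes tested was -0.02, and 22 of the 39 were lower in Brd1+/- mice, against 56.3% of all genes. That 1 gene was Tfeb (chromosome 17, 47737030 to 47792419). It ran from 1.62 through 1.98 to 6.21 TPM in WT vehicle and from 1.91 through 4.11 to 7.18 TPM in Brd1+/- vehicle. In WT vehicle 7 libraries lay at or below 2.65 TPM and replicate 1 stood alone at 6.21 TPM, and the highest Brd1+/- vehicle value belonged to replicate 6, the other library that stood apart, whereas 8 of 9 Brd1+/- vehicle libraries lay above the WT mean on the log2 scale. The log2 difference was 0.68 ± 0.24 (SE, unadjusted p = 0.0104, limma, adjusted p = 1.00). Without these 2 libraries it was 0.77 ± 0.18 (SE, limma, adjusted p = 0.438), and with the oligodendrocyte and microglia scores as covariates 0.55 ± 0.12 (SE, limma, adjusted p = 0.932). A change in the number of cells of a type and a change in RNA per cell cannot be told apart in such bulk samples.

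Tfe3, the partner of Tfeb on chromosome X (7762560 to 7775202), had a log2 difference of -0.03 ± 0.07 (SE) between the same 2 groups. The tripeptidyl peptidase Tpp1 and the sialidase Neu1 came next in order of p, both with lower values in Brd1+/- vehicle. Tpp1 ran from 43.6 through 58.1 to 85.8 TPM in WT vehicle and from 48.1 through 51.3 to 61.2 TPM in Brd1+/- vehicle, and Neu1 from 33.7 through 41.3 to 47.8 TPM and from 31.6 through 36.6 to 47.8 TPM. Neither difference exceeded the spread between mice. How small the differences could be is given by the intervals: for 24 of the 39 genes the 95% interval lay within 1.2-fold in either direction, and for 37 within 1.5-fold. For Tfeb it reached from 113.4% to 227.8% of the WT level.

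IMN was then compared with vehicle within each genotype, in libraries that the 2 comparisons do not share. In WT mice 0 of the 39 genes passed an adjusted p of 0.05 (0% of all genes tested by limma), and 5 had an unadjusted p under 0.05 (12.8%), against 6.6% of all genes. In Brd1+/- mice 0 of the 39 passed the adjusted threshold, against 0.00782% of all genes tested, and 4 had an unadjusted p under 0.05 (10.3%), against 5.52%. The median log2 difference of the 39 genes was 0.00 in WT and 0.01 in Brd1+/- mice. Tfe3 and the iduronidase Idua were among these genes in both genotypes. Without WT vehicle replicate 1 the count in WT was 8 (20.5%), against 10.6% of all genes in the same fit. With the oligodendrocyte and microglia scores as covariates it was 3 (7.69%), against 6.98%. Leaving out each library in turn gave counts from 3 to 8 in WT. Except without WT vehicle replicate 1, the share of all genes in those fits is not given here. That range is therefore not shown to be particular to the members.

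Tfe3 was lower under IMN in both genotypes, though not past the adjusted threshold. It ran from 24.7 through 29.9 to 31.8 TPM in WT vehicle and from 17.3 through 25.5 to 27.6 TPM in WT IMN. In Brd1+/- mice it ran from 23.8 through 28.2 to 31.9 TPM under vehicle and from 18.9 through 24.9 to 31.0 TPM under IMN. All 10 WT IMN libraries lay below the WT vehicle mean and 8 of 9 Brd1+/- IMN libraries below the Brd1+/- vehicle mean, but the ranges overlapped in both genotypes. The log2 difference was -0.27 ± 0.09 (SE, limma, adjusted p = 0.589) in WT and -0.18 ± 0.08 (SE, limma, adjusted p = 0.903) in Brd1+/- mice. Tfeb gave 0.25 ± 0.23 (SE) in WT and -0.23 ± 0.22 (SE) in Brd1+/- mice, neither beyond its spread. The value in WT was 0.43 without WT vehicle replicate 1, 0.15 without WT IMN replicate 7 and 0.07 with the oligodendrocyte and microglia scores as covariates, and that in Brd1+/- mice was -0.14 without Brd1+/- vehicle replicate 6 and -0.35 without Brd1+/- IMN replicate 6.

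Idua, which removes iduronic acid from heparan and dermatan sulfate, had the largest positive difference of the 39 genes in both genotypes. It lies on chromosome 5 from 108660331 to 108684557. It ran from 4.42 through 9.35 to 11.3 TPM in WT vehicle and from 6.97 through 11.1 to 15.9 TPM in WT IMN, and from 4.64 through 6.95 to 11.8 TPM in Brd1+/- vehicle and from 7.42 through 10.49 to 16.98 TPM in Brd1+/- IMN. The lowest values of both vehicle groups had no counterpart under IMN, while the upper parts of the ranges overlapped. The log2 difference was 0.39 ± 0.17 (SE, limma, adjusted p = 0.723) in WT, with 9 of 10 IMN libraries above the vehicle mean, and 0.50 ± 0.18 (SE, limma, adjusted p = 0.807) in Brd1+/- mice, with 9 of 9. Its exons share 141 bases with Slc26a1 and 124 bases with Dgkq on the opposite strand, 3.4% and 2.9% of its exon length, so reads there are uncertain.

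Among the other glycoprotein hydrolases the beta-mannosidase Manba and the fucosidase Fuca1 were named by their p-values. Manba ran from 3.48 through 3.91 to 7.40 TPM in Brd1+/- vehicle and from 3.85 through 6.62 to 10.7 TPM in Brd1+/- IMN, a log2 difference of 0.42 ± 0.17 (SE, limma, adjusted p = 0.826). In WT mice it ran from 3.19 through 3.78 to 5.88 TPM and from 3.72 through 4.73 to 9.52 TPM. Fuca1 ran from 14.8 through 18.3 to 23.0 TPM in WT vehicle and from 13.1 through 15.4 to 18.1 TPM in WT IMN, with all 10 IMN libraries below the vehicle mean and a log2 difference of -0.21 ± 0.08 (SE, limma, adjusted p = 0.667). In Brd1+/- mice Fuca1 had a log2 difference of 0.00 ± 0.08 (SE), with 12.9 through 17.6 to 20.5 TPM under vehicle and 15.2 through 17.3 to 19.3 TPM under IMN.

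Cathepsin L (Ctsl), a cysteine protease, ran from 39.6 through 50.5 to 56.0 TPM in WT vehicle and from 49.7 through 55.0 to 64.6 TPM in WT IMN. All 10 IMN libraries lay above the vehicle mean, and the log2 difference was 0.18 ± 0.07 (SE, limma, adjusted p = 0.671). In Brd1+/- mice it ran from 39.5 through 54.1 to 62.1 TPM under vehicle and from 49.7 through 57.4 to 69.0 TPM under IMN. Of the membrane proteins, Lamp2, which lines the lysosome, had a log2 difference of 0.12 ± 0.06 (SE, limma, adjusted p = 0.743) in WT mice, and the lysosomal calcium channel Mcoln1 one of 0.12 ± 0.05 (SE, limma, adjusted p = 0.885) in Brd1+/- mice. All 5 membrane protein genes had a positive log2 difference and all 5 activator and cofactor genes a negative one, in each genotype, with medians of 0.04 and -0.03 in WT mice and 0.10 and -0.03 in Brd1+/- mice. The same median over all genes tested was -0.01 in WT and 0.01 in Brd1+/- mice, and 54.5% and 47.5% of all genes were negative. The mean oligodendrocyte score under vehicle and IMN was 4.94 ± 1.13 (SD) and 5.54 ± 1.17 (SD) in WT mice. In Brd1+/- mice it was 5.25 ± 0.85 (SD) and 5.45 ± 1.27 (SD), and these differences were not tested. Of the membrane protein genes, Lamp1, Scarb2 and Lamp2 had an r with that score of 0.72, 0.54 and 0.51, Mcoln1 0.17 and Cd63 -0.07. The activator and cofactor genes went both ways, with Psap at 0.43, Ctsa at 0.38, Gm2a at 0.19, Sumf1 at -0.04 and Grn at -0.53. With the oligodendrocyte and microglia scores as covariates, 3 of the 5 membrane protein genes were positive in WT (median 0.01) and 5 of 5 in Brd1+/- mice (median 0.07), while all 5 activator and cofactor genes were negative in each (medians -0.07 and -0.03).

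**Figure D2:**
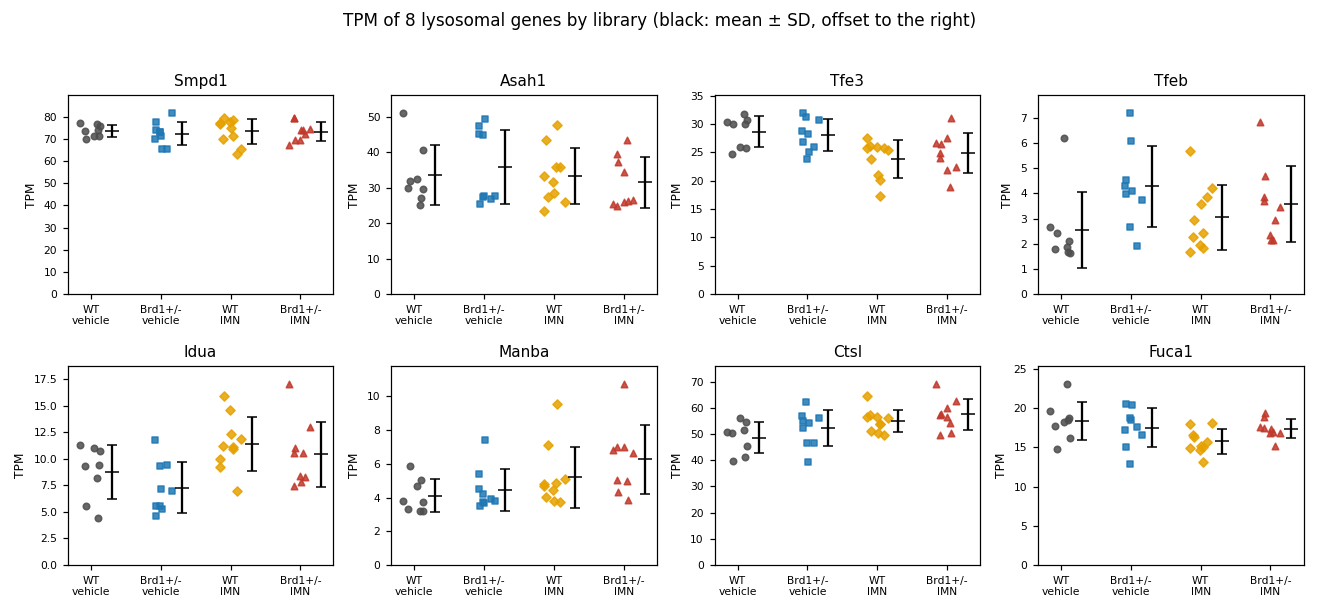
TPM of 8 lysosomal genes in each of the 36 libraries, with the mean and SD of each group in black. Smpd1 lies between 63.3 and 81.5 TPM in every library, Tfeb in WT vehicle has 1 library at 6.21 TPM and the rest at or below 2.65 TPM, and Tfe3 is lower and Idua higher in the IMN groups with overlapping points.

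**Figure D3:**
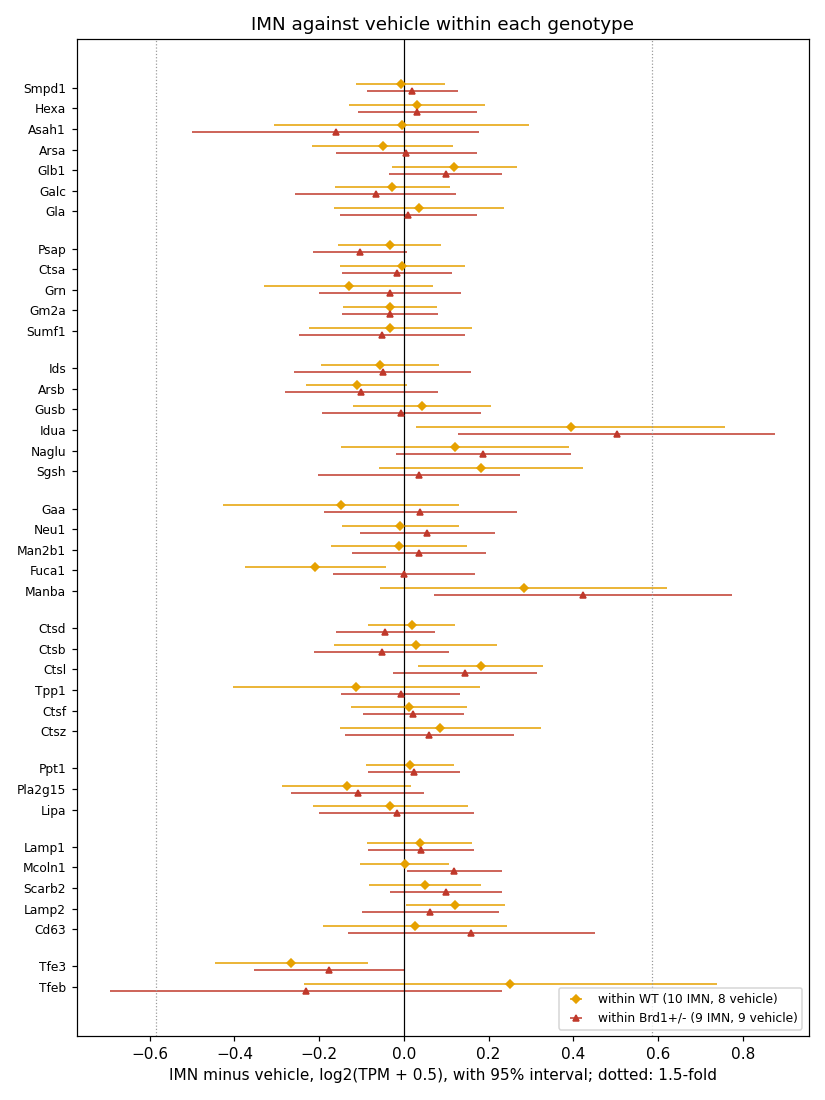
Difference between IMN and vehicle on the log2(TPM + 0.5) scale for the 39 genes, with 95% intervals from limma, within WT (diamonds) and within Brd1+/- mice (triangles), and dotted lines at 1.5-fold. Most intervals cross 0, Idua lies to the right in both genotypes (0.39 and 0.50) and Tfe3 to the left (-0.27 and -0.18).

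In a fit of all 36 libraries with genotype as a covariate the intervals were narrower, and again no member passed the threshold. By limma with Benjamini-Hochberg adjustment 0 of the 39 genes passed an adjusted p of 0.05, against 0.274% of all genes tested. At an unadjusted p under 0.05 there were 7 of the 39 (17.95%), against 9.38% of all genes, and at an unadjusted p under 0.01 there were 4, against 3.11%. Those 4 were Tfe3, at 85.8% of vehicle (95% interval 78.8% to 93.3%, limma, adjusted p = 0.111), Idua at 136.5% (114.2% to 163.0%, limma, adjusted p = 0.124), Ctsl at 111.9% (103.9% to 120.6%, limma, adjusted p = 0.221) and Manba at 127.7% (108.3% to 150.6%, limma, adjusted p = 0.235). Tfe3 stood at place 170 of the 25572 genes when ordered by p. The remaining 3 of the 7 were the lysosomal phospholipase Pla2g15 at 91.9%, Glb1 at 107.8% and the arylsulfatase Arsb at 92.9% of vehicle. Tfeb was at 100.6% with an interval of 79.5% to 127.3%. The immediate-early score, lower in the IMN groups, had an r with the deviations from group means of -0.07 for Tfe3, -0.37 for Idua, -0.39 for Ctsl and -0.20 for Manba over the 36 libraries, and its part in these values was not tested. For 30 of the 39 genes the interval lay within 1.2-fold in either direction, and for 37 within 1.5-fold.

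The 13 genes with CACGTG in the promoter window had a median log2 difference of 0.02 between IMN and vehicle over both genotypes, with 8 positive and 5 negative, and 2 at an unadjusted p under 0.05 (9.38% of all genes tested had one). The 24 genes with a window that lacked it had a median of 0.01, with 13 positive and 11 negative, and 5 at an unadjusted p under 0.05. Of the genes whose motif is printed above, Ctsa, Ctsd, Gla, Mcoln1 and Sumf1, none had an unadjusted p under 0.05 in that comparison, and their log2 differences ran from -0.04 to 0.06.

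Whether IMN acted differently in the 2 genotypes was tested with an interaction term over all 36 libraries. By limma 0 of the 39 genes passed an adjusted p of 0.05 (0% of all genes tested), and 0 had an unadjusted p under 0.05, against 3.2% of all genes. The smallest p-values belonged to Fuca1, with a difference between the IMN effects of 0.21 ± 0.11 (SE, log2), Mcoln1 with 0.12 ± 0.07 (SE) and Tfeb with -0.48 ± 0.33 (SE), each with an adjusted p of 1.00. The differences seen in one genotype for Fuca1 and Mcoln1 were therefore not shown to differ from the other genotype. For Tfe3 the interaction was 0.09 ± 0.12 (SE). Intervals were widest here, and 21 of the 39 lay within 1.2-fold.

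Under IMN, Brd1+/- mice were compared with WT mice in the same way, to ask what difference of genotype remained. By limma 0 of the 39 genes passed an adjusted p of 0.05 (0% of all genes tested, so Brd1 itself again did not pass). At an unadjusted p under 0.05 there was 1 of the 39 (2.56%), against 3.23% of all genes. It was Fuca1, with a log2 difference of 0.14 ± 0.06 (SE, limma, adjusted p = 1.00) and 8 of 9 Brd1+/- IMN libraries above the WT IMN mean. Mcoln1 followed, with 84.9 through 92.3 to 97.2 TPM in WT IMN and 89.8 through 95.7 to 117.9 TPM in Brd1+/- IMN, and then Gusb, a glucuronidase of glycosaminoglycan breakdown, with 11.1 through 11.51 to 16.3 TPM and 10.1 through 11.2 to 12.2 TPM. Tfeb ran from 1.67 through 2.70 to 5.69 TPM in WT IMN and from 2.16 through 3.47 to 6.85 TPM in Brd1+/- IMN, a log2 difference of 0.20 ± 0.22 (SE). This comparison shares its libraries with those of IMN against vehicle and with the interaction, so those values are not independent of each other. It shares none with the comparison of genotypes under vehicle.

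The lysosomal genes did not vary together as 1 block from mouse to mouse. Over the 741 pairs of the 39 genes, Pearson's r of the deviations from group means over 36 libraries had a median of 0.07 (0.04 after median-ratio scaling), with 37 pairs at or above 0.5 and 5 at or below -0.5. The points of every such correlation share their libraries and the closed sum of TPM. The highest values were between Ctsz and the acid lipase Lipa (0.73), Ctsz and Tfeb (0.73), and Lamp1 and Tfeb (0.72). Without the 2 libraries farthest from the median of Lipa, Ctsz and Lamp1, in that order, they were 0.61, 0.57 and 0.65. The other gene of each pair was not used to choose those libraries. The lowest were between Ctsb and the progranulin gene Grn (-0.66), Ctsb and the glycogen-splitting Gaa (-0.63), and Naglu and Manba (-0.61). Among the 13 genes with CACGTG the median r was 0.20 over 78 pairs, compared with 0.02 over the 276 pairs of the 24 genes without it. The former had a median r of 0.31 with Tfeb and -0.01 with Tfe3, the latter 0.09 and 0.02.

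Many of the genes in the highest pairs also went with the oligodendrocyte markers. The 10 markers of myelinating cells were scored by their mean log2 level, and 10 of the 39 genes correlated with that score at 0.5 or above over the 36 libraries, more than with any of the other 8 marker lists. The score varied widely within groups (SD 0.85 to 1.27). The share of all genes tested that reach this r was not computed, so the count is not shown to be particular to lysosomal genes. Ctsz (0.76), Lamp1 (0.72), Tfeb (0.71), Lipa (0.70) and Ctsb (0.69) stood highest, and Grn, which microglia and neurons express, was at -0.53. Smpd1 was at -0.12 and Tfe3 at 0.25. Without WT vehicle replicate 1 and Brd1+/- vehicle replicate 6, 5 genes remained at 0.5 or above, and Ctsz, Lamp1, Tfeb, Lipa and Ctsb were then at 0.70, 0.66, 0.62, 0.62 and 0.64. The highest Tfeb values were 7.18 TPM in Brd1+/- vehicle 6, 6.85 in Brd1+/- IMN 6, 6.21 in WT vehicle 1, 6.10 in Brd1+/- vehicle 7 and 5.69 in WT IMN 7, where the 10 markers summed to 1801, 3435, 2830, 998.8 and 3560 TPM. Other genes went with other lists, as Ids with excitatory neurons (0.77), the tetraspanin Cd63 with astrocytes (0.75), Ctsb with interneurons (0.76), and Grn with microglia (0.59), while Hexa was at -0.76 with interneurons and the palmitoyl thioesterase Ppt1 at -0.72 with microglia. The part of cell content in these values was not tested.

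**Figure D4:**
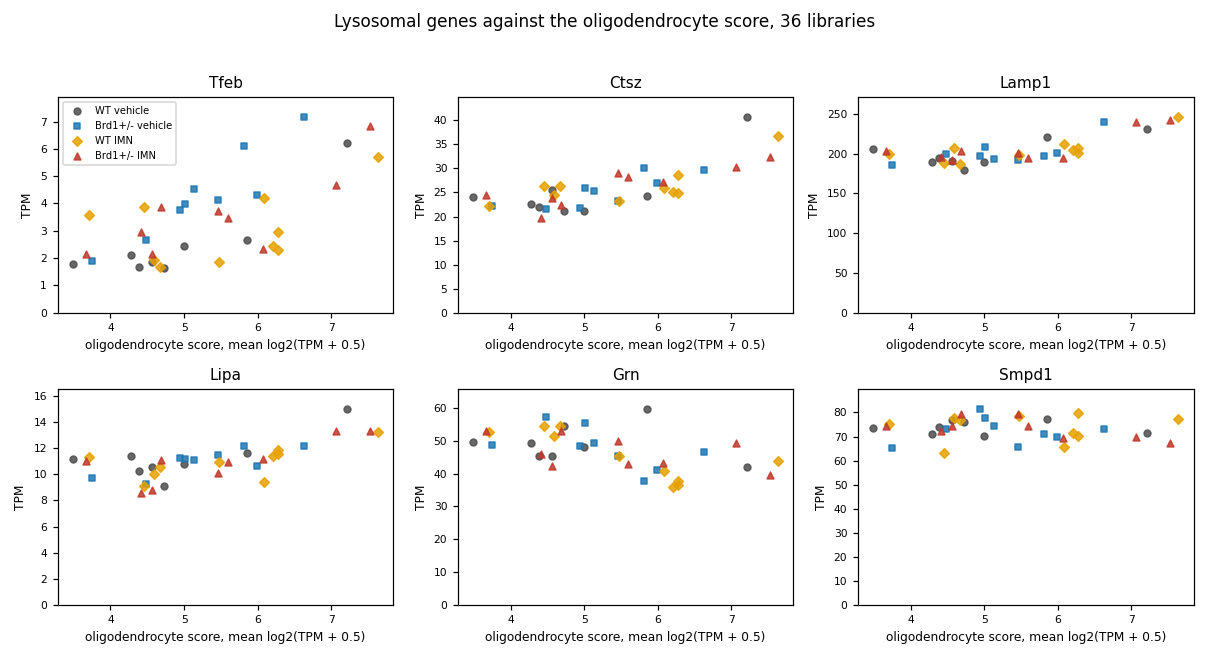
TPM of 6 lysosomal genes against the oligodendrocyte score (mean log2(TPM + 0.5) of 10 markers) in the 36 libraries, by group. Tfeb, Ctsz, Lamp1 and Lipa go up with the score (within-group r of 0.71, 0.76, 0.72 and 0.70), Grn goes down (-0.53), and Smpd1 stays level (-0.12).

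Other genes of the pathway were read from the same fits, in 6 lists of 88 genes that all passed the filter: the proton pump (17), further lysosomal hydrolases (20), membrane transport and export (14), mannose 6-phosphate targeting (6), lysosomal nutrient sensing (11), and sphingomyelin and ceramide metabolism outside the lysosome (20). Over both genotypes, 1 of the 88 passed an adjusted p of 0.05 under IMN by limma, against 0.274% of all genes, and 13 had an unadjusted p under 0.05 (5 higher and 8 lower), against 9.38%. In each of the other 5 comparisons 0 of the 88 passed the adjusted threshold by limma. There the number at an unadjusted p under 0.05 was 3 for genotype under vehicle, 2 for genotype under IMN, 4 for IMN in Brd1+/-, 3 for IMN in WT and 1 for the interaction, against 3.75%, 3.23%, 5.52%, 6.6% and 3.2% of all genes. By list, the numbers at an unadjusted p under 0.05 over both genotypes were 5 of 20 for sphingomyelin and ceramide outside the lysosome, 3 of 14 for membrane transport, 2 of 17 for the proton pump, 2 of 20 for further hydrolases, 1 of 11 for nutrient sensing and 0 of 6 for targeting.

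The 1 gene that rose under IMN was Acer2, the alkaline ceramidase of the Golgi, which makes the same conversion of ceramide to sphingosine as Asah1 outside the lysosome. Acer2 lies on chromosome 4 from 86874396 to 86934822. It ran from 3.01 through 4.09 to 4.95 TPM in WT vehicle and from 3.20 through 4.23 to 6.401 TPM in Brd1+/- vehicle, compared with 4.65 through 6.32 to 9.86 TPM in WT IMN and 5.02 through 7.14 to 10.3 TPM in Brd1+/- IMN. All 19 IMN libraries lay above the vehicle mean of their genotype, and the lowest of them still overlapped the highest vehicle libraries. The log2 difference was 0.62 ± 0.10 (SE, limma, adjusted p = 0.00122), or 153.9% of vehicle (134.1% to 176.6%). Within single genotypes it was 0.65 ± 0.14 (SE, limma, adjusted p = 0.285) in WT and 0.59 ± 0.14 (SE, limma, adjusted p = 0.488) in Brd1+/- mice, and the interaction was -0.06 ± 0.20 (SE). Its r was 0.44 with the interneuron score, 0.37 with astrocytes, 0.26 with endothelial and mural cells and 0.20 with oligodendrocytes. It was -0.51 with excitatory neurons, -0.28 with the striatal score, -0.255 with microglia, -0.21 with the immediate-early genes and -0.16 with choroid plexus. The excitatory neuron score was 6.17 and 6.16 in WT and Brd1+/- vehicle and 6.02 and 6.08 under IMN, and its part in the difference was not tested.

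Sphk2, the kinase that phosphorylates sphingosine, came next. It ran from 21.4 through 24.5 to 28.9 TPM in Brd1+/- vehicle and from 16.8 through 19.2 to 28.4 TPM in Brd1+/- IMN, a log2 difference of -0.27 ± 0.09 (SE, limma, adjusted p = 0.773). In WT mice it ran from 18.4 through 21.5 to 28.9 TPM under vehicle and from 18.4 through 19.95 to 22.7 TPM under IMN, a difference of -0.11 ± 0.08 (SE). Over both genotypes it was at 87.6% of vehicle (80.5% to 95.3%, limma, adjusted p = 0.191), so it did not pass the threshold.

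**Figure D5:**
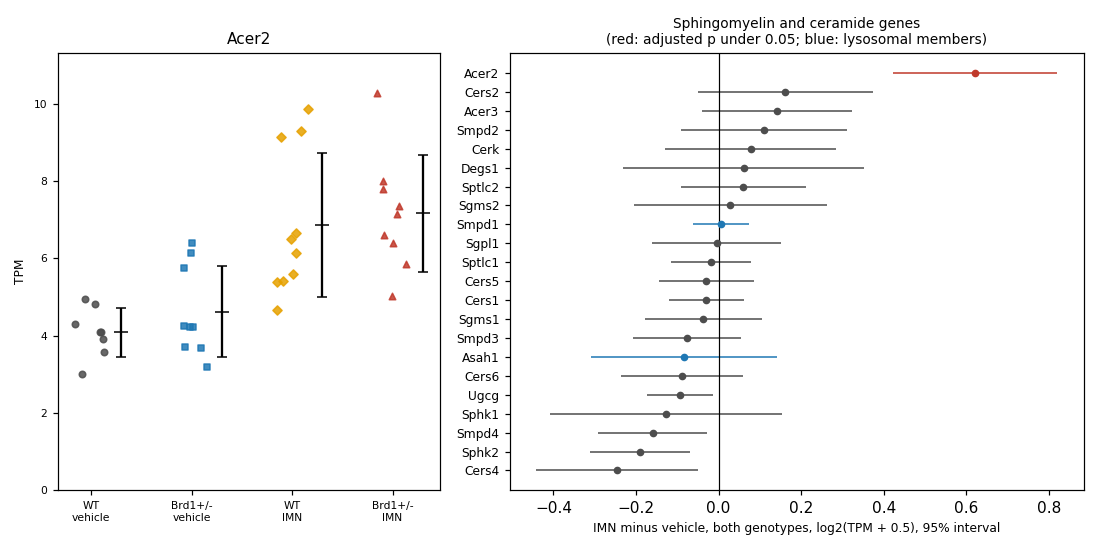
Left, Acer2 in TPM in each library with the mean and SD of each group in black. Right, the difference between IMN and vehicle over both genotypes on the log2(TPM + 0.5) scale with 95% intervals for 20 genes of sphingomyelin and ceramide metabolism outside the lysosome and for the lysosomal Smpd1 and Asah1 (blue); only Acer2 (red, 0.62) passed an adjusted p of 0.05, and Smpd1 lies at 0.01.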

How the data were processed

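RNA of aCC punches from 36 mice was sequenced on the BGISEQ-500. Per the submitters' processing notes the authors used FastQC, Trimmomatic, HISAT2 2.1.0 and StringTie 1.3.4 with GRCm38. The authors deposited TPM for each gene in each library, not scaled further. Column totals ran from 999727.1 to 999889.0 TPM. TPM keep no depth, so no counting error was computed, and precision rests on the spread between mice. The authors' own test used counts that were not used here. Strand use in the counting is not given in the sources used here, so exons shared with another gene are uncertain.

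Groups came from the sample labels. TPM were transformed as log2(TPM + 0.5), which understates changes of low genes, and genes that reached 0.1 TPM in 8 or more of 36 libraries were tested with limma 3.58.1 in R 4.3.3 (empirical Bayes, intensity trend). Tests were two-sided, and p-values were adjusted after Benjamini-Hochberg over all 25572 genes. Comparisons of 2 groups used their libraries only, and the interaction and the IMN effect over both genotypes used all 36. The fits were tested on simulated data. Smpd1 was also tested by exact permutation. Python 3.11.15 with numpy 2.4.6, scipy 1.17.1, pandas 2.3.3 and matplotlib 3.10.9 did the rest. Positions are from GENCODE M21. Zero sample variances in some fits were offset by limma.

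The members and lists were chosen with earlier results of these data known. Smpd1, Asah1, Tfeb and Tfe3 were named in every comparison, with up to 6 further members of smallest p among those with an unadjusted p under 0.05 (3 members where fewer than 3 had it), up to 4 genes per comparison of the wider lists with an unadjusted p under 0.01, the 3 most and 3 least abundant members, and the 3 highest and 3 lowest correlated pairs. Further members were named by their level or role. Marker lists were scored as the mean log2(TPM + 0.5). Alternatives were pseudocounts of 0.1 and 1, other filters, scalings, covariates and fits, and leaving out each library. Leaving out WT vehicle replicate 1 and Brd1+/- vehicle replicate 6 together was chosen after seeing the data.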

Additional observations from a re-analysis of the deposited data

Results flagged for a closer look

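In 164 tests of single groups, which asked whether the highest or lowest library of a group lay apart from the rest of it (Dixon's criterion), 14 values of the named genes stood out, and chance alone flags about 1 in 20 groups. WT vehicle replicate 1 was far above its group in Tfeb (6.21 TPM, next 2.65), Ctsz (40.8 TPM, next 25.4) and Ctsb (298.5 TPM, next 230.7) and below it in Gusb (9.24 TPM, next 11.2). That library had 2830 TPM of the oligodendrocyte markers.

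WT IMN replicate 7, with 3560 TPM of the same markers, stood above its group in Lamp1 (246.2 TPM, next 212.1) and Ctsz (36.7 TPM, next 28.7). Brd1+/- vehicle replicate 6, the library with striatal and choroid plexus RNA, stood above its group in Lamp1 (239.9 TPM, next 208.8) and Lamp2 (52.2 TPM, next 42.5).

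Brd1+/- vehicle replicate 7 was low in Ids (147.8 TPM, next 223.2). Sumf1, which activates the sulfatases, was low in WT IMN replicate 1 (10.2 TPM, next 12.4) and Brd1+/- IMN replicate 6 (8.38 TPM, next 11.6). Gusb was high in WT IMN replicate 8 (16.3 TPM, next 12.1), Mcoln1 low in WT vehicle replicate 5 (75.9 TPM, next 88.1), and Arsa high in Brd1+/- IMN replicate 7 (26.8 TPM, next 21.6). No member moved one way in every library of one genotype and the opposite way in every library of the other (0 found).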

How the results depend on the processing

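Under each alternative that was run, replicates left out included, 0 of the 39 members passed an adjusted p of 0.05 in each of the 6 comparisons, and Acer2 passed it under IMN over both genotypes (adjusted p 0.000589 to 0.00599 by limma). Over the same alternatives the adjusted p of Tfe3 in that comparison ran from 0.0609 to 0.187 and that of Idua from 0.0688 to 0.206. Counts at an unadjusted p under 0.05 moved more. For genotype under vehicle the count was 2 (5.13%) without the 2 libraries that stood apart, against 6.77% of all genes in the same fit. For genotype under IMN it was 2 (5.13%) with no filter, against 2.98% of all genes, or without mitochondrially encoded genes, against 3.48%. It was 0 with quantile normalization, 1 fit of all groups or a replicate block, against 3.38%, 3.02% and 3.39%. For IMN in Brd1+/- it was 2 (5.13%) with a replicate block, against 5.13% of all genes, and 6 (15.4%) with no filter, against 4.65%. For IMN in WT it was 3 (7.69%) with the oligodendrocyte and microglia covariates, against 6.98%, and 8 (20.5%) without WT vehicle replicate 1, against 10.6%. For the interaction it was 1 (2.56%) with those covariates, against 3.71%, or with the striatal score, against 3.9%. For IMN over both genotypes it ran from 7 to 10. It was 10 (25.6%) with quantile normalization, against 9.88%, or without mitochondrially encoded genes, against 9.72%. It was 9 (23.1%) with median-ratio scaling, against 9.98%, or with those covariates, against 9.5%. Mitochondrially encoded genes held 21.7% to 30.5% of the TPM of a library.

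With replicates left out in turn the counts ran from 1 to 2 (genotype under vehicle, 2 without WT vehicle 2 or Brd1+/- vehicle 7), 0 to 2 (genotype under IMN), 2 to 5 (IMN in Brd1+/-, 2 without Brd1+/- vehicle 4 or Brd1+/- IMN 9), 3 to 8 (IMN in WT, 3 without WT vehicle 3, WT IMN 3 or WT IMN 10), 0 to 2 (interaction) and 6 to 9 (both genotypes). For genotype under IMN it was 0 without WT IMN 6, 8, 9 or 10 or Brd1+/- IMN 5, 6, 7 or 9, and 2 without Brd1+/- IMN 8. For the interaction it was 1 without WT vehicle 1 or 2, Brd1+/- vehicle 3 or 8, WT IMN 3 or 7 or Brd1+/- IMN 8, and 2 without WT vehicle 5. Except without WT vehicle replicate 1, the share of all genes in these fits is not given here. The counts alone therefore do not show a change particular to the members. The cause of these moves was not tested.

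Among the genes named in each comparison, directions turned only for log2 differences near 0. Other members were not followed singly. By role, 5 proteases were higher and 1 lower under IMN in WT mice (median 0.02). With the oligodendrocyte and microglia covariates 1 was higher and 5 were lower (median -0.02). Smpd1 for genotype under IMN (-0.0014 as reported) was 0.0102 with quantile normalization, 0.0077 without mitochondrially encoded genes, 0.0076 with the replicate block, 0.0001 with the oligodendrocyte and microglia covariates and 0.0195 with the striatal score, and -0.0249 to 0.0143 with replicates left out. For IMN in WT, median-ratio scaling, quantile normalization and leaving out mitochondrially encoded genes gave 0.0108, 0.0278 and 0.0113 for Smpd1 (-0.0077 as reported) and 0.0131, 0.0200 and 0.0136 for Asah1 (-0.0054 as reported). Asah1 was 0.0238 with the replicate block, and with replicates left out Smpd1 ran from -0.0210 to 0.0157 and Asah1 from -0.0663 to 0.0850. Over both genotypes Smpd1 (0.0060) was -0.0045 with the replicate block and -0.0032 to 0.0177 with replicates left out, and Tfeb (0.0088) was -0.1139 with the covariates and -0.0445 to 0.0847 with replicates left out.

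The sample labels used here do not say whether replicate numbers pair the mice. The study describes its WT and Brd1+/- mice as matched by litter, and litter was not modelled here. Correlations between libraries cannot show how the mice were matched. The deviations of same-numbered libraries correlated between -0.26 and 0.26, and the replicate block changed no adjusted call. Counting only the 250 bases before the start left the motif counts at 13 and 5 of 37. Without depth, low genes such as Tfeb, Manba and Sgsh carry a counting error that could not be separated from the spread between mice.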
